A study of Homo sapiens with 197 samples.

Results

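Among the wells of IMR90 cells that each received 1 activated kinase, 10 received a kinase whose name begins with CSNK, CLK, DYRK or HIPK. They were 5.46% of the kinase wells compared and 5.08% of all lanes of the series, and the remaining kinase wells served as the comparison. The 10 wells were taken by these names, a choice made with earlier results of these data known. They held 4 casein kinases 1 (CSNK1A1L, CSNK1E, CSNK1G1 and CSNK1G2), 3 CLK kinases (CLK1, CLK2 and CLK3), 2 DYRK kinases (DYRK2 and DYRK4) and HIPK1. As a set they were not told apart from the other kinase wells in any row of the panel: 0 of 58 rows passed the test, and 56 of the 58 intervals of the difference lay within 2-fold. Departures lay in single wells or in blocks of neighboring sample numbers. MAGEA3 was counted once in CLK1, below the level of the negative-control probes. The row named Tet3 was higher in DYRK4 than in any other kinase well. Its distance from the mean was smaller with B2M added to the normalizing genes and in the deposited table. In CLK2, 41 weak rows were low together, and its block was low as well. Values far from the mean were also found among the other kinase wells. In the 10 wells, 0.345% of pairs of a well and a row lay over 2.5 SD above the mean, against 0.379% in the others. Over 2.5 SD below the mean lay 1.38%, against 0.807%. In the 10 wells each of these low values rested on 1 or 2 counts. In the others 36 of 81 lay in rows above the negative-control level, so the 2 shares differ in kind.

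These families belong to the CMGC and CK1 branches of the human kinases. Casein kinases 1 are monomeric serine/threonine kinases that often act on substrates already phosphorylated nearby, with the epsilon form known for the circadian clock and Wnt signaling and the gamma forms for being anchored at membranes by a lipid. CLK kinases phosphorylate the serine- and arginine-rich proteins that choose splice sites, and DYRK kinases switch themselves on by phosphorylating a tyrosine of their own activation loop before acting on serine and threonine. HIPK kinases are their nuclear relatives and phosphorylate transcription factors and co-repressors.

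The kinase lanes and 2 IMR90 controls enter the results below, and the other 12 lanes of the series enter no test of these kinases unless named. IMR90 is a line of non-transformed human fetal lung fibroblasts. Kinases were delivered by retroviruses as open reading frames carrying a myristoylation signal and a Flag tag, and RNA was taken 4 days after infection. The control lanes are labelled as empty vector under names that give only the cell line, so they are called IMR90 controls here. Both sets of kinase wells therefore share the infection, the vector and the tag, and the controls, as labelled, received the vector without a kinase. The study also speaks of non-infected IMR90 cells, and if the control lanes were such cells, differences from them would include infection itself, which cannot be told apart here. Myristoylation draws a protein to membranes, which limits what the wells say about kinases that normally act in the nucleus, such as the CLK kinases and HIPK1. Each kinase had 1 well. Wells of different kinases of a family were used as the units of spread, and no value of a single kinase has an error between replicate wells. None of 11 markers of fibroblasts, epithelium, immune cells or endothelium is on the panel, so the cell type could not be checked from the data. Values are means over the cells of a well, and more cells expressing a gene and more RNA per cell cannot be told apart.

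RNA was counted with Nanostring probes, which are hybridized to RNA and read one by one without amplification. Total counts of the 10 lanes ran from 100390 in CLK1 to 194030 in CLK3, with a median of 128678, and those of the other kinase lanes from 29629 to 340763, with a median of 160187. The counts of a lane were scaled by the spike-in controls and next by PGK1, TBP and TUBB2A (their geometric mean), and the result is called the normalized count. The scaling factor ran from 0.916 in CLK3 to 1.61 in DYRK4. In each lane the mean + 2 SD of 8 negative-control probes set the level below which counts were not told from background. Of the 58 rows (57 endogenous rows and B2M), 17 lay above that level in the median kinase lane and 41 at or below it. The latter included 38 of the 42 tissue-restricted genes, so that most of what follows on testis and placenta genes rests on a few counts per lane.

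The question put to the set was whether these kinases move any gene of the panel away from where the other kinases leave it. With edgeR's quasi-likelihood test on the counts and Benjamini-Hochberg adjustment over the 58 rows, 0 rows were called (0% of rows), and 0 had an unadjusted p under 0.05. The smallest adjusted p was 0.663. In 49 of the 58 rows the 10 wells lay within the range of the other wells, the exceptions being ADCY10, CTCFL, MAEL, MAGEA3, TPTE, XAGE3, ITPR2, Tet3 and B2M. In 29 rows, among them 13 of the 17 above the negative-control level, the 95% interval of the log2 difference stayed between -0.5 and 0.5. Wider than 2-fold were the intervals of the rows named ZBTB33 and ZBTB38, described further below.

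**Figure D1:**
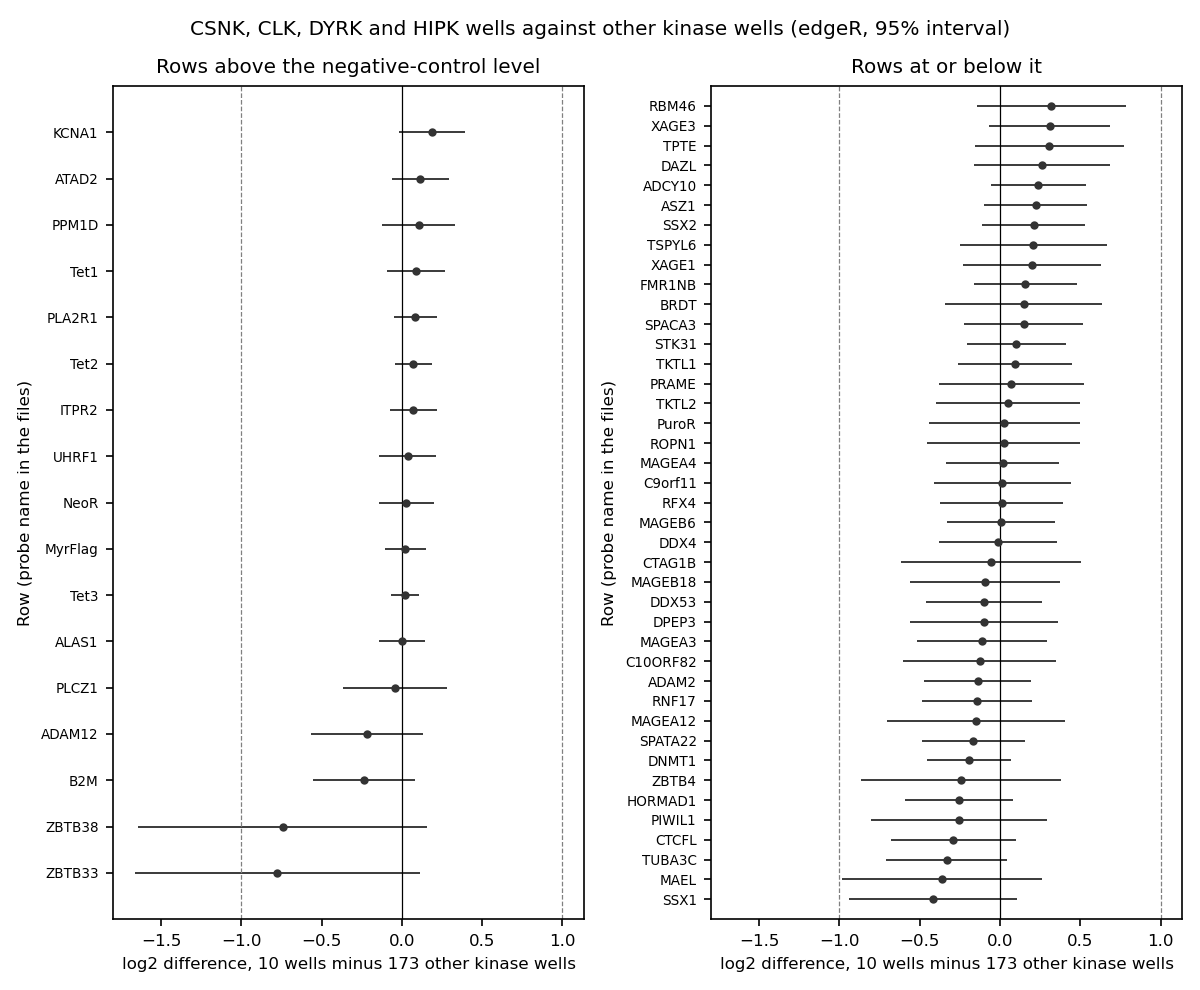
Log2 difference between the 10 CSNK, CLK, DYRK and HIPK wells and the other kinase wells for each row, as points with 95% intervals from edgeR, with dashed lines at 2-fold in either direction. The intervals of all 58 rows include 0, and those of the rows named ZBTB33 and ZBTB38 reach beyond 2-fold.

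Of the 42 tissue-restricted genes, 4 were above the negative-control level. ADAM12, a membrane-anchored metalloprotease, had a lowest normalized count of 29.1 (HIPK1), a median of 40.1 and a highest of 65.9 (CLK3) in the 10 wells, against 26.2, 44.98 and 504 in the other wells, where the highest value belonged to MAP3K7. The controls read 35.01 and 46.8. No well of the set came near the MAP3K7 value, and the difference from the other wells was -0.22 on the log2 scale (SE 0.18, edgeR adjusted p = 0.663), and 3 of the 10 wells were above the other wells' median. ATAD2, a bromodomain ATPase linked to DNA replication, ran from 155.3 in CSNK1A1L to 245 in DYRK2 with a median of 193.3, against a median of 178 in the other wells (log2 difference 0.12, SE 0.089). ALAS1, the first and rate-limiting enzyme of heme synthesis, ran from 390 in CSNK1G1 to 600.3 in DYRK4 with a median of 493.5, against 479, and its log2 difference was 0.00085 (SE 0.073), with an interval from -0.14 to 0.15. The phospholipase C of sperm, PLCZ1, was close to the level, with 6 of the 10 lanes above it and a log2 difference of -0.044 (SE 0.16).

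Rows named for DNA methylation and for membrane and signaling proteins were counted well above background, except DNMT1, with 1 of the 10 lanes above the level. Genes are given by the names of the rows. Whether the doubt over names described further below reaches these rows was not tested. UHRF1, which recognizes hemimethylated DNA and brings DNMT1 to it, ran from 653 in CSNK1G1 to 1084 in CLK3 with a median of 783 normalized counts, against 796 in the other wells and 684 and 997 in the controls. Both controls lay within the span of the 10 wells. For the rows Tet1, Tet2 and Tet3, which encode oxidases of methylated cytosine, the log2 differences were 0.089 (SE 0.092), 0.072 (SE 0.057) and 0.021 (SE 0.044). Tet3 was the tightest row of the panel between the other wells, with an SD of 0.12 on the log2 scale, and the DYRK4 well stood above every other kinase well with 2390 normalized counts, against a highest value of 2304 elsewhere. KCNA1, a voltage-gated potassium channel, had the smallest p of all rows. Its values ran from 44.9 in CLK1 to 83.9 in DYRK4 with a median of 61.02, against 53.9 in the other wells, a log2 difference of 0.19 (SE 0.10, interval -0.015 to 0.39, p = 0.0695 unadjusted). ITPR2, a calcium channel of the endoplasmic reticulum, had its highest value of all kinase wells in DYRK4 (942 normalized counts, against at most 936 in the other wells), and B2M, the light chain of MHC class I, its lowest in CSNK1E (23138, against at least 24422). The B2M difference over the 10 wells was -0.23 (SE 0.16).

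**Figure D2:**
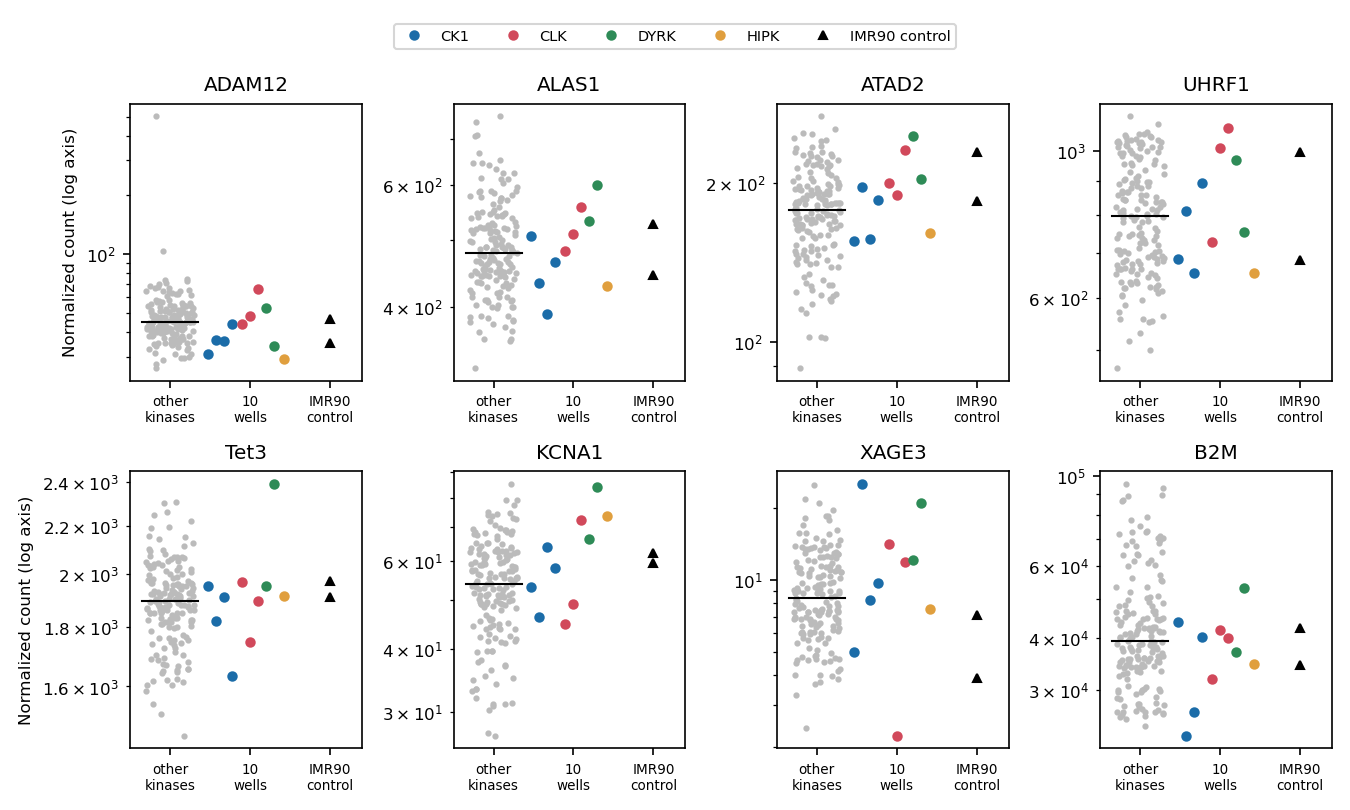
Normalized counts (log axes) of 8 rows in the other kinase wells (grey, with their median as a line), the 10 wells colored by family in alphabetical order, and the 2 IMR90 controls (triangles). The colored points lie within the grey ones except Tet3 in DYRK4 at 2390, B2M in CSNK1E at 23138 and XAGE3 in CSNK1E and CLK2 at 25.3 and 2.23.

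Gene lists were described by their counts and medians. They follow how the study chose its probes, except the list of replication genes, which was put together here, and the list of remaining genes. Among the 10 methylation-linked genes, testis genes whose return in tumors goes with loss of DNA methylation, 0 were called and the median log2 difference was -0.056, with 4 of 10 above 0. For the 10 genes not linked to methylation it was 0.0054, and 6 of 10 were above 0. The 5 genes inducible by 5-aza-cytidine (MAGEA3, MAGEA4, MAGEA12, CTAG1B and TKTL1) had a median of -0.058 and 2 of 5 above 0. In the 8 chromatin factors, of which 6 were above the negative-control level, the median was -0.086, and it was 0.029 without the rows named ZBTB33 and ZBTB38. In ATAD2, UHRF1 and DNMT1, which go with DNA replication, it was 0.036. The 17 remaining tissue-restricted genes had a median of 0.071, with 11 of 17 above 0. Over all 58 rows the median was 0.019 and 34 were above 0, and each list's median lay between -0.086 and 0.071.

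Below the negative-control level, the rows with the smallest p were TUBA3C, a testis alpha-tubulin (log2 difference -0.33, SE 0.19), XAGE3, a cancer/testis and placenta antigen (0.31, SE 0.19), SSX1, a cancer/testis repressor (-0.42, SE 0.26), ADCY10, the soluble adenylyl cyclase (0.24, SE 0.15), HORMAD1, a protein of the meiotic chromosome axis (-0.26, SE 0.17), and CTCFL, the testis relative of CTCF (-0.29, SE 0.20). Their adjusted p was 0.663 throughout. In TUBA3C, SSX1, HORMAD1 and CTCFL, 0 of the 10 lanes were above the level, and in XAGE3 and ADCY10 1 was. Counts this low do not settle a direction. With counts raised to the negative-control level first, the 10 lanes hold only that level in TUBA3C, SSX1, HORMAD1 and CTCFL. The differences were then 0.17, 0.18, 0.14 and 0.18. In the 10 wells these values are set by the levels of the lanes, so they cannot tell a direction of the genes.

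The rows named ZBTB33 and ZBTB38 were the widest spread of the set. ZBTB33 is the name the files give to a row that read 8.75 and 18.3 normalized counts in the IMR90 controls, below their negative-control level, 6.23 and 6.86 in SW39 and at most 31.7 in mixed human RNA, yet 146.8 to 112422 in the other kinase wells. It was thus low in the lanes without a kinase and high in those with one. Its name is in doubt, as are those of the rows named ZBTB38, MyrFlag and NeoR. Whether the doubt reaches the other endogenous rows outside the tissue-restricted genes was not tested. Among these are DNMT1, UHRF1, Tet1, Tet2, Tet3, KCNA1, ITPR2, PLA2R1 and PPM1D. The names may not match what the probes read, possibly through an exchange, which was not tested. Counts over the chromatin factors and calls against the controls that hold the row named ZBTB33 carry that doubt. In the 10 wells it ran from 1740 in CLK1 through 3873 in HIPK1, 5127 in CLK2, 5363 in DYRK2, 9293 in CSNK1G2, 15391 in CSNK1G1, 23124 in CLK3, 23936 in CSNK1A1L and 30078 in DYRK4 to 31762 in CSNK1E. The median was 12342, against 22607 in the other wells, a log2 difference of -0.78 (SE 0.45, interval -1.66 to 0.11, edgeR adjusted p = 0.663). CLK1 ranked 8 from the lowest of the kinase wells, HIPK1 16, CLK2 22 and DYRK2 25, the last 2 within the range of their blocks. The row named ZBTB38 moved with it, from 772 in CLK1 to 18576 in DYRK4. Across the 10 wells the log2 values of the rows correlated with r = 0.988 (permutation p = 2e-05) and rho = 0.976 (permutation p = 3e-05), and r was 0.978 without the 2 wells farthest from the median. Adjusted over the 4 relations computed, these p-values were 4e-05 and 6e-05. In the other wells r was 0.993, pooled and within blocks of 12 sample numbers alike. The controls, with ZBTB38 at 1591 and 7039, lay off this line. Together the 2 rows took 2.12% of all counts in the CLK1 lane and 30.8% in the CSNK1E lane.

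**Figure D3:**
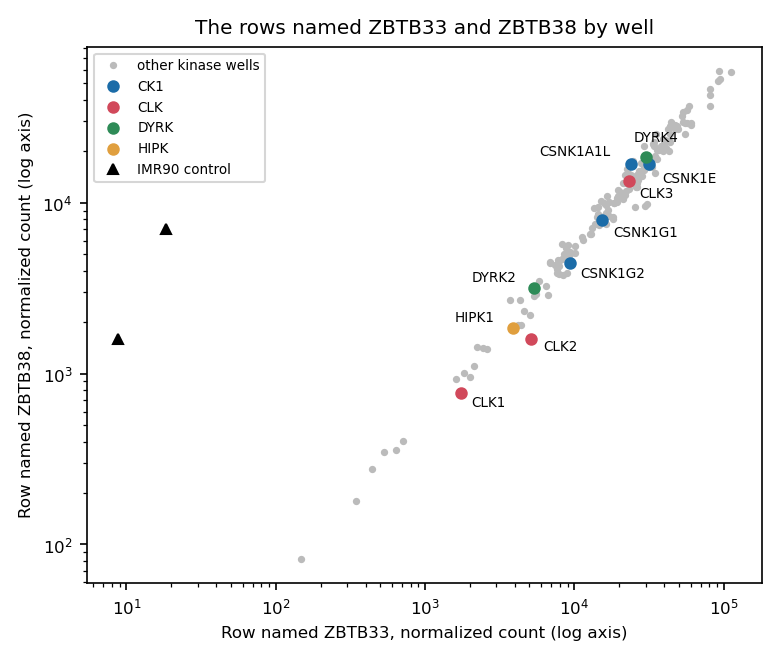
Normalized counts (log axes) of the rows named ZBTB33 and ZBTB38 in each well, with the 10 wells colored by family and named, other kinase wells in grey and IMR90 controls as triangles. Kinase wells lie along 1 line, with CLK1 lowest of the set at 1740 and CSNK1E highest at 31762 for ZBTB33, while the controls read 8.75 and 18.3.

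The row named MyrFlag, by its name a probe for the tag sequence common to the kinase vectors, did not separate kinase wells from controls. It ran from 556 to 837 normalized counts in the 10 wells with a median of 621, and read 665 and 714 in the controls. In SW39 it read 2526 and 2841 and in mixed human RNA 1196 to 1534, against at most 870 in the other kinase wells. Its log2 difference from the other kinase wells was 0.021 (SE 0.064). Of the rows named for resistance genes, NeoR ran from 157.1 to 223 in the 10 wells and read 182.8 and 177.03 in the controls. In SW39 it read 197.2 and 234.5 and in mixed human RNA 400.5 to 544.9, against at most 287.4 in the other kinase wells. PuroR was below the negative-control level. The row named MyrFlag was thus higher in SW39 and mixed human RNA, lanes without a kinase, than in any kinase well compared. With the names in doubt, whether these values are those of the tag and of the resistance genes was not tested. They are given under the files' names, and none was used as a measure of how much kinase a well made.

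Against the 2 IMR90 controls, 1 of 58 rows was called in the 10 wells (1.72% of rows), the row named ZBTB33, with a log2 difference of 10.10 (SE 1.87, edgeR adjusted p = 1.18e-05) and values in 10 of 10 wells above both controls. Since the controls were below the negative-control level, the size of that difference is set by background counts. In the other kinase wells against the same 2 controls, 1 row was called as well (1.72%), again ZBTB33 (10.88, SE 1.91, adjusted p = 2.89e-06). ADCY10 and DAZL, an RNA-binding protein of germ cells, came next in the 10 wells (1.03, SE 0.40, and 1.63, SE 0.64, both adjusted p = 0.218). With the second lane of control 2 added, whose title carries the sample number of control 1, both passed, but that lane is a further run of a control already counted and no new replicate, so its p-values are too small and are not given. Of the 41 rows at or below the negative-control level, 40 had a positive difference from the controls, with a median of 0.58. The same was counted in the other kinase wells, with a median of 0.68 and 40 of 41 rows positive, and both comparisons share the controls.

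The 4 casein kinase 1 wells had 0 called rows against the other kinase wells (0%) and 0 with an unadjusted p under 0.05. The smallest p was that of ADCY10 (log2 difference 0.40, SE 0.23), with 15.03 normalized counts in CSNK1A1L, 26.7 in CSNK1E, 10.3 in CSNK1G1 and 13.997 in CSNK1G2. ADAM12 was below the other wells' median in each of the 4 (31.1, 36.5, 36.1 and 44.1 in the same order), with a log2 difference of -0.42 (SE 0.28). B2M was split, with 43866 in CSNK1A1L and 40290 in CSNK1G2 but 23138 in CSNK1E and 26485 in CSNK1G1. CSNK1E was the lowest B2M value of all kinase wells. The other 11 wells of its block of sample numbers had a median of 29941 and a lowest value of 25945, and CSNK1E lay 0.84 below the mean of all other kinase wells and 0.43 below that of its block on the log2 scale. In CSNK1G2, PPM1D, a phosphatase of the DNA damage response, read 213 normalized counts, against 117.25, 120.9 and 126.8 in the other 3 wells, and was above the highest value of its block (201.9).

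The 3 CLK wells also had 0 called rows (0%). MAGEA3, a cancer/testis antigen, had the smallest p (log2 difference -1.04, SE 0.42, edgeR adjusted p = 0.723), followed by TUBA3C (-0.80, SE 0.36) and ADAM2, a sperm surface protein (-0.68, SE 0.33), and these 3 rows had an unadjusted p under 0.05. MAGEA3 was counted once in CLK1 (exact Poisson interval 0.0253 to 5.57 counts), 2 times in CLK2 (0.242 to 7.22) and 9 times in CLK3 (4.12 to 17.1). The negative-control levels of these lanes were 15.002, 19.9 and 44.2 counts. CLK1 and CLK2 were the lowest of all kinase wells for MAGEA3, below the range of their blocks, whereas CLK3 ranked 97. The call depended on CLK3 and on the test: without that well the difference was -2.25 and passed (adjusted p = 0.0353), as it did with limma, which changes both the test and the scale, on log2(normalized count + 1) (-1.19, adjusted p = 0.0134) and on the deposited table (-1.18, adjusted p = 0.0161), over a range of adjusted p from 0.0134 to 0.995 in 11 alternatives. In the 3 CLK lanes every MAGEA3 count was below the negative-control level. Between the CK1 and the CLK wells 0 rows were called (0%), and MAGEA3 was again first (log2 difference 1.27, SE 0.51, adjusted p = 0.813), with the same 3 alternatives passing (1.43, 1.43 and, without CLK3, 2.48, adjusted p = 0.0428, 0.0441 and 0.0368, over a range from 0.0368 to 0.918). Of 58 intervals between these families 36 were wider than 2-fold, so these wells do not show that CK1 and CLK kinases act alike.

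In CLK2 the weak rows were low together. Of the 41 rows at or below the negative-control level, 0 had a positive Z-score in CLK2, the distance from the mean over the kinase wells and controls in units of their SD. Their mean Z-score was -1.28, the third lowest of the kinase wells, against a range from -1.65 to 1.38 in the other kinase wells. Its negative-control probes averaged 9.35 normalized counts (rank 80 from the highest), near the median of 9.12 in the other wells. The other 10 wells of its block of sample numbers were low too, with a median of -0.66 and a lowest value of -1.07, and their mean lay below that of all other kinase wells in 40 of 41 rows. On the log2 scale CLK2 averaged 0.78 below all other kinase wells and 0.48 below its block over these rows, and was below its block in 34 of 41. DAZL turned, from -0.28 against all other kinase wells to 0.35 against the block. Above the level the mean Z-score of CLK2 was -0.078 over 17 rows.

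The 2 DYRK wells had 0 called rows (0%). Of the 58 rows, 43 had a positive difference from the other kinase wells, and the median was 0.20. The unadjusted p was under 0.05 in 6 rows, each with a positive difference. They were TPTE, a testis membrane phosphatase relative (1.19, SE 0.43), DAZL (1.05, SE 0.41), RBM46, another germ cell RNA-binding protein (1.09, SE 0.44), KCNA1 (0.48, SE 0.22), Tet3 (0.20, SE 0.094) and XAGE3 (0.80, SE 0.39), with adjusted p of 0.296 for the first 3, 0.417 for KCNA1 and Tet3 and 0.419 for XAGE3. The 2 wells did not contribute alike. TPTE read 27.9 normalized counts in DYRK2, the highest of all kinase wells, and 11.3 in DYRK4, and RBM46 16.8 and 6.45. DAZL was similar in both, with 20.5 and 17.8. For KCNA1 and Tet3 the values were 66.1 and 83.9, and 1951 and 2390, with DYRK4 the higher. TPTE in DYRK2 rested on 30 counts in a lane whose negative-control level was 54.6.

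DYRK4 carried the highest values of the set in several abundant rows, given under the files' names. Of its 58 Z-scores 48 were positive, and over the 17 abundant rows their root mean square was 1.35 (rank 18 from the highest), against a median of 0.877 in the other kinase wells. Z-scores were 2.84 for Tet3, 2.18 for ITPR2, 2.00 for KCNA1 and 1.65 for PLA2R1, a receptor for secreted phospholipase A2, and -1.05 for ADAM12. The geometric mean of its 3 normalizing genes was the lowest of the set, with 6739 counts for PGK1, 263 for TBP and 2458 for TUBB2A, and its scaling factor of 1.61 ranked 17 from the highest. With B2M added to the normalizing genes the Z-score of Tet3 was 1.53, and in the deposited table, where 1 low kinase lane is not scaled, it was 1.67.

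HIPK1 had 1 well and no test. Its ADAM12 value of 29.1 ranked 4 from the lowest of the kinase wells and its TUBA3C value of 2.53 ranked 3, from 2 counts, while KCNA1 (73.5 normalized counts) ranked 11 from the highest and PLA2R1 (606) ranked 22. In its block of sample numbers it lay outside the range of the other wells in 6 of 17 abundant rows (ADAM12, ALAS1, KCNA1, PLA2R1 and the rows named ZBTB33 and ZBTB38). Over the 10 wells 14.1% of the abundant values lay outside the range of their block, against 18.7% in the other kinase wells, where the share is fixed by each row having 1 highest and 1 lowest well in a block. CSNK1A1L was outside in 4 of 17 rows (ADAM12, MyrFlag, ITPR2 and PLA2R1), CLK1 in 3 and each of the others but DYRK4 in at most 1.

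Taken well by well, 2 of 580 pairs of a kinase and a row had a Z-score above 2.5, or 0.345%, against 0.379% of 10034 pairs in the other kinase wells, and 0 had one above 3.5. They were Tet3 in DYRK4 (2.84) and XAGE3 in CSNK1E (2.57). XAGE3 in CSNK1E was 18 counts with an exact Poisson interval from 10.7 to 28.4, which includes the negative-control level of 16.4. Its Z-score fell below 2.5 with HK1 in the mean (1.64), in the deposited table (2.48) and with counts raised to the negative-control level (0.57). It was 2.68 with the mean and SD over the other kinase wells only, 2.83 with B2M added and 3.04 at a pseudocount of 10. That of Tet3 in DYRK4 was below 2.5 with B2M added and in the deposited table, as given above, and 2.83 to 2.86 otherwise. Below -2.5 there were 8 pairs, or 1.38%, against 0.807% in the other wells. They were MAGEA3 in CLK1 (-3.63), CTAG1B, CTCFL, MAGEA3, SSX1 and XAGE3 in CLK2 (-2.55, -2.63, -2.62, -2.60 and -2.77), and MAEL, a factor of the piRNA pathway, and TUBA3C in HIPK1 (-2.53 and -2.88). Each of the 8 rested on 1 or 2 counts, under negative-control levels of 14.2 to 19.9, and 5 of them lay in the CLK2 well. In the other wells 36 of 81 such pairs lay in rows above the negative-control level. MAGEA3 in CLK1 was at -0.77 with counts raised to the negative-control level, a value set by the level of its lane.

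**Figure D4:**
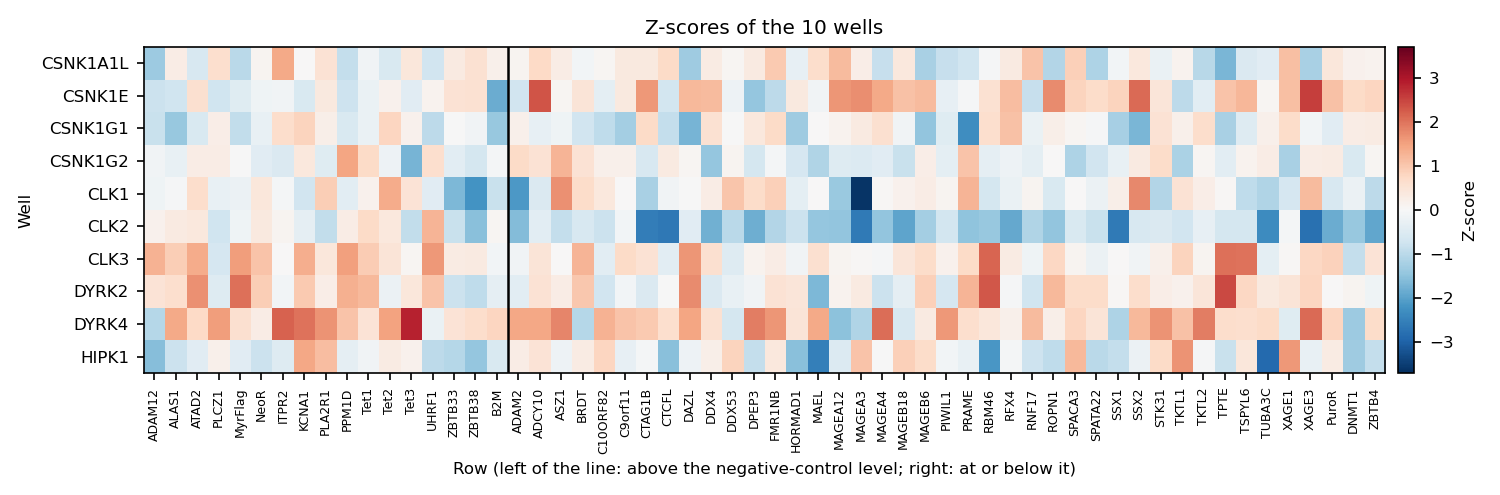
Z-scores of the 10 wells (lines) in the 58 rows (columns), red for values above and blue for values below the mean over the IMR90 wells, with a vertical line between the 17 rows above the negative-control level and the 41 at or below it. CLK2 is blue in all 41 rows right of the line, DYRK4 is mostly red, and the darkest cell is MAGEA3 in CLK1 at -3.63.

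Likeness of profiles was described over pairs of wells. Over the Z-scores of the 17 abundant rows, Pearson's r of a pair of wells had a median of 0.095 in the 10 pairs within a family and 0.039 in the 35 pairs between families, with pairs sharing wells. Without the rows named ZBTB33 and ZBTB38 the order turned, with medians of -0.084 and 0.16. Within families it ran from -0.49 (CSNK1A1L with CSNK1G2) to 0.56 (CLK2 with CLK3), and DYRK2 with DYRK4 had -0.18. The most alike pair of all 45 crossed families: CLK3 and DYRK2, with r = 0.81, and 0.86 without the rows named ZBTB33 and ZBTB38. The least alike was CLK3 with CSNK1A1L, with r = -0.76.

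CLK3 and DYRK2 shared the sample numbers 25 to 36, a block of 12 that held 10 other kinase wells and that the labels do not call a batch. DYRK2 lay within the range of these 10 wells in 17 of 17 abundant rows, and nearer to their mean than to that of all other kinase wells in 16 of 17. CLK3 lay within it in 16 of 17 rows, UHRF1 being outside (1084 normalized counts, against at most 1038), and was nearer to their mean in 13 of 17. Over the 17 rows the root mean square log2 difference was 0.62 from all other kinase wells and 0.28 from the block in DYRK2, but 0.34 and 0.46 in CLK3, where the row named ZBTB33 was 0.44 above all others and 1.34 above the block. MyrFlag in DYRK2 was 0.40 above all other kinase wells on the log2 scale and 0.080 above its block, and PPM1D 0.49 and 0.025. Of the weak rows behind the DYRK comparison, TPTE in DYRK2 was 1.68 above all other kinase wells but 0.55 above its block, whose highest value was 23.7 normalized counts, and RBM46 1.52 and 0.50. The other wells of the block themselves lay 1.14 above all other kinase wells for TPTE, 1.02 for RBM46 and 0.86 for DAZL. In DYRK4, which lies in another block, DAZL was 1.00 above all other kinase wells and 0.83 above its block, and XAGE3 1.199 and 1.06. Both lay within the range of that block, whose highest values were 18.8 and 21.1 normalized counts. DAZL rested on 11 counts, and both rows were below the lane's negative-control level of 14.6 counts. Negative-control probes were high in both wells that share a block, averaging 24.2 normalized counts in DYRK2 (rank 2 from the highest) and 20.5 in CLK3 (rank 9). The median was 8.68 over the 10 wells and 9.12 over the other kinase wells. The other wells of that block were high too, from 17.3 in MAPK7 to 24.4 in UCK2, except MPP1 at 10.8. MPP1 also had the lowest TPTE, RBM46 and DAZL of these other wells (8.74, 3.75 and 7.49). Across the 10 wells the log2 mean of the negative controls and the mean Z-score of the 41 weak rows had r = 0.24 (permutation p = 0.495) and rho = 0.35 (permutation p = 0.331), or 0.495 and 0.441 adjusted over the 4 relations, and r was -0.052 without the 2 wells farthest from the median. In the other kinase wells r was 0.069 (permutation p = 0.369) and 0.36 within blocks.

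**Figure D5:**
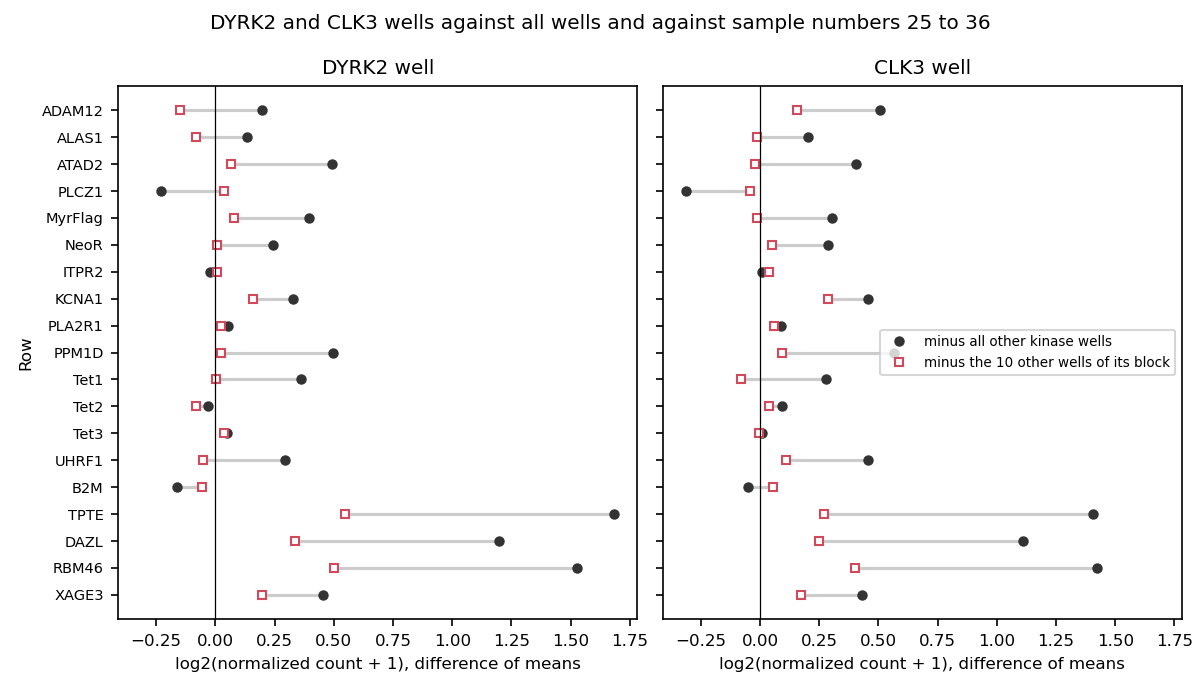
Difference of log2(normalized count + 1) for the DYRK2 well (left) and the CLK3 well (right), against the mean of all other kinase wells (filled points) and against the mean of the 10 other wells with sample numbers 25 to 36 (open squares), for 15 abundant and 4 weak rows. Most squares lie nearer 0 than the points, for example TPTE in DYRK2 at 0.55 instead of 1.68.

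DYRK4 was outside the range of the other 11 wells in 7 of 17 abundant rows (ADAM12, ALAS1, ATAD2, ITPR2, PPM1D, Tet3 and UHRF1), but nearer to their mean than to that of all other kinase wells in 10 of 17. Tet3 was 0.34 above all other kinase wells and 0.20 above its block, and ITPR2 0.52 and 0.36. The next highest Tet3 wells, PAK4 and IHPK2 (2304 and 2303 normalized counts), were in that block. Over the 41 weak rows DYRK4 averaged 0.38 above all other kinase wells and 0.042 above its block. CLK1 and HIPK1, in the block that starts at number 97, were both outside it for the rows named ZBTB33 and ZBTB38, with ZBTB33 at 1740 and 3873 normalized counts, against at least 4206 in the other 10 wells. Adding the blocks of sample numbers to the test of the 10 wells left 0 rows called.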

How the data were processed

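The authors deposited raw counts of 75 probes for each lane, without normalization. They also deposited a series table whose signal the authors had scaled by PGK1, TBP and TUBB2A in all lanes but 8, where it equals the counts. Analysis software before deposit is not given in the sources used here. Counts were scaled as stated in the text. Tests were run on counts in R 4.3.3 with edgeR 4.0.16 (glmQLFit and glmQLFTest, with an offset from the log geometric mean of the 3 genes). Adjusted p-values under 0.05 were called, and standard errors were derived from the F statistic. All kinase wells and controls entered each fit, with the 10 wells as 1 group for the set and split by family for the family comparisons. HK1, whose lane held almost no endogenous counts, and the second lanes of PIK3CG and PTK2 were left out. DESeq2 1.42.0, limma 3.58.1, other normalizations, floors, blocks and left-out wells were alternatives, as was a permutation test with 100000 resamples, two-sided. Python 3.11.15 was used for Z-scores with a pseudocount of 1. Computations were tested on simulated data. Poisson intervals (95%) cover counting error only. Members, gene lists and tests were chosen with earlier results of these data known. The rows named were ADAM12, ATAD2, ALAS1, B2M, XAGE3, UHRF1, MyrFlag and ZBTB33, the 10 rows with the smallest p, and pairs with a Z-score beyond 2.5 either way. Other rows were named after their values were seen. P-values measure the spread between wells of different kinases.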

Additional observations from a re-analysis of the deposited data

Results flagged for a closer look

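In 6 of the groups of values examined (58 rows over the 10 wells and 58 over the 4 CK1 wells), 1 well lay so far from the nearest other that its gap exceeded Dixon's critical share of the range, which chance does in about 1 in 20 groups. The 6 were 5.17% of the groups, near the share that chance gives. Over the 10 wells these were Tet3 in DYRK4 (2390 normalized counts, next 1967), PIWIL1, a Piwi protein of germ cells, in DYRK4 (16.1, next 7.33, from 10 counts) and the transcription factor RFX4 in CLK2 (4.47, next 9.45, from 4 counts). Among the CK1 wells they were PPM1D in CSNK1G2 (213, next 126.8), Tet1 in CSNK1G2 (391, next 330) and C9orf11, a sperm acrosome protein, in CSNK1G1 (3.09, next 6.46, from 3 counts). PIWIL1, RFX4 and C9orf11 were below the negative-control level. Against the other wells of their blocks of sample numbers, Tet1 in CSNK1G2 was 0.025 higher on the log2 scale (0.22 against all other kinase wells), PPM1D in CSNK1G2 0.26 higher (0.55) and Tet3 in DYRK4 0.20 higher (0.34).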

How the results depend on the processing

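No row was called between the 10 wells and the other kinase wells in any of 26 alternatives, which had 0 to 2 rows at an unadjusted p under 0.05. Of 383 values of 15 named rows under the alternatives, 0 were called, 363 kept their direction and the lowest adjusted p was 0.279. The 20 that turned sign were all small or weak. ALAS1 became -0.0017 with blocks of sample numbers in the fit, -0.00066 without the MAP3K7 well, -0.040 without CLK3 and DYRK2 and -0.035 without DYRK4, and with 1 of the 10 wells left out in turn ran from -0.035 to 0.034. UHRF1 became -0.055 without CLK3 and DYRK2, and MyrFlag -0.00054 with blocks and -0.071 without CLK3 and DYRK2. With 1 of the 10 wells left out, UHRF1 ran from -0.015 to 0.069 and MyrFlag from -0.026 to 0.045. The last 3 left-out sets were chosen after seeing the data. Counts floored at the negative-control level gave 0.17 for TUBA3C, 0.18 for SSX1, 0.14 for HORMAD1 and 0.18 for CTCFL. In these rows the 10 lanes then hold only the level, so the sign cannot be read as that of the genes. Called rows against the controls were 3 with the second control lane, which is no new replicate. In CLK against the others and in CK1 against CLK there was 1 (MAGEA3) with limma at a pseudocount of 1 and with the deposited table, and 0 to 1 with 1 well left out. Pairs with a Z-score above 2.5 numbered 1 with HK1 in the mean, 0 in the deposited table, 6 at a pseudocount of 10 and 42 with floored counts, 41 of them in DYRK2, whose level is high. Those below -2.5 numbered 1, 7, 1 and 0. No paired analysis was possible because kinase wells carry no replicate numbers. Few counts per lane limit the 41 weak rows.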
